A study of Mus musculus with 12 samples.

Results

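RNA sequencing of proximal ileal epithelium scrapings was used to describe 10 genes that are expressed by intraepithelial T cells, namely Cd3e, Cd3g, Cd3d, Cd8a, Gzma, Gzmb, Ccl5, Itgae, Cd7 and Trdc. The genes were taken by symbol from a list of names, chosen with earlier results of these data known. They are 10 of the 46078 genes in the count tables. All 12 libraries came from male C57BL/6 mice that were gavaged 7 times, once every 4 days, from the age of 28 days. Tissue was collected at the age of 56 days, after the last gavage. The 4 groups, 3 libraries each, received either the sesame oil vehicle or 3, 10 or 30 µg/kg TCDD. TCDD, a dioxin, is a persistent ligand of the aryl hydrocarbon receptor (AhR), a transcription factor that induces Cyp1a1 and Cyp1b1. Replicate numbers used below follow the order of deposition. Libraries with the same number also share a library index, the short sequence that marks a library in sequencing, and no label ties them to the same litter, day or cage.

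Intraepithelial T cells lie between the absorptive enterocytes of the gut. Many carry the γδ form of the T cell receptor, a CD8αα homodimer, and the integrin αE chain that binds epithelial E-cadherin, and they store granzymes in preformed granules. AhR signalling is known to be required for the maintenance of these cells in mice. In RNA from whole scrapings, fewer cells of a type and less RNA per cell cannot be told apart.

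Libraries held 11695887 to 22180274 counts assigned to genes, and all 10 genes had at least 30 counts in every library. The exposure check showed Cyp1a1 at 19.0 to 27.5 CPM (counts scaled to library size by edgeR) in vehicle and 2608 to 3251 CPM at 30 µg/kg. The 30 µg/kg libraries stood apart in how reads were assigned. At most 25.4% of entries lay outside any gene, against 28.0 to 30.1% in the other 9 libraries. Alignments to more than 1 place made up 36.2 to 38.8%, against 31.4 to 34.6%. These are shares of reads and alignments counted together, so a rise in 1 share lowers the others. The part of these differences in the changes at 30 µg/kg was not tested. Libraries of the same dose differed in the RNA of B lymphocyte genes. The summed CPM of 5 B lymphocyte genes (Cd79a, Cd79b, Ms4a1, Cd22 and Pax5) was 4.29, 28.9 and 64.6 in the 3 vehicle libraries and 4.98 to 6.38 at 30 µg/kg. The sum was 7.34 to 24.1 at 3 µg/kg and 3.25 to 18.3 at 10 µg/kg, so vehicle replicates 2 and 3 stood above every other library. Pax5 was at 0 counts in 2 libraries. The summed CPM of 9 circadian clock genes also differed within a dose. It was 160, 934 and 873 in vehicle and 880, 182 and 177 at 3 µg/kg. At 10 µg/kg it was 739, 156 and 139, and at 30 µg/kg it was 678, 615 and 287. High and low libraries were thus unevenly spread over the doses, which limits the fits with a clock score given below. Each call of the 10 genes that changed when 1 library was left out, or when a B lymphocyte score was added to the model, is given with that value.

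The CD3 genes form a cluster on chromosome 9, and the promoters of Cd3g and Cd3d are shown first because these genes start near each other on opposite strands yet differed in their values below. Positions are those of GENCODE M21 on GRCm38. Cd3g (ENSMUSG00000002033) lies at chr9:44969572-44980431 on the minus strand, Cd3d at chr9:44981786-44987339 on the plus strand, and Cd3e at chr9:44998740-45009627 on the minus strand. The starts of Cd3g and Cd3d are 1355 bases apart. The other genes are Cd8a at chr6:71373427-71379173, Itgae at chr11:73090583-73147446, Ccl5 at chr11:83525778-83530518, Cd7 at chr11:121036747-121039418, Gzma at chr13:113093825-113100981, Trdc at chr14:54142851-54148868 and Gzmb at chr14:56258838-56262260. Each sequence runs 5′ to 3′ on the gene's strand from 250 bases before to 50 bases after the RefSeq start (GRCm38.p6), at chr9:44980382-44980681 for Cd3g and chr9:44981536-44981835 for Cd3d. The Gzmb window at chr14:56262285-56262584 (minus strand) is shown because it held 2 matches to a motif of RUNX factors, which act in CD8 T cells. Capitals mark those matches.
Cd3g: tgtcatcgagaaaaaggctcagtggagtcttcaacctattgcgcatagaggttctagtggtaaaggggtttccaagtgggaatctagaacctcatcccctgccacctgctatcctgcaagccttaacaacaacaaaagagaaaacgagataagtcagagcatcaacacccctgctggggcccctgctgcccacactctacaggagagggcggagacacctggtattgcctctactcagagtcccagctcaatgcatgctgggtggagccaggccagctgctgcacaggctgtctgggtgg
Cd3d: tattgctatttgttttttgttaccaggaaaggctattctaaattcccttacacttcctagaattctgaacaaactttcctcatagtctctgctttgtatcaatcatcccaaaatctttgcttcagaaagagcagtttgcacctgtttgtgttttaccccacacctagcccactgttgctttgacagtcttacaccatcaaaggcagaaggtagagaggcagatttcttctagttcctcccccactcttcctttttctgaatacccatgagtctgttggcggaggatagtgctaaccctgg
Gzmb: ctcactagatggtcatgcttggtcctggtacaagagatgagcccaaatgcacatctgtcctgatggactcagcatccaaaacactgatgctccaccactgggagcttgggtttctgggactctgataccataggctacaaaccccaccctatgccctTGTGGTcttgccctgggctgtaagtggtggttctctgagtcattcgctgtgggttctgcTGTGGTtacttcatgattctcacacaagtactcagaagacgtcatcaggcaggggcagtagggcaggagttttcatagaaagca

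Promoter windows were found for 6 of the 10 genes (Cd8a, Cd3g, Cd3d, Cd3e, Gzma and Gzmb). Both strands were searched for GCGTG, the core of the dioxin response element bound by AhR, and for TGTGGT, the RUNX core. The motifs do not overlap each other in these windows. Cd8a held 1 dioxin response element core, and the other 5 windows held none. Of all 32851 promoters of that length, 32.4% held the letters GCGTG. The RUNX core was found once in Gzma and at 2 places in Gzmb, compared with 16.8% of all promoters holding at least 1. The Gzmb window lies upstream of the gene as annotated by GENCODE M21 (chr14:56258838-56262260), whose start differs from that of RefSeq.

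Cd3g, Cd7 and Gzmb rose at 30 µg/kg TCDD, whereas the other 7 genes did not pass the test. A gene passed when its adjusted p was under 0.05 (edgeR quasi-likelihood test, Benjamini-Hochberg adjustment over 15823 genes) and its change was at least 1.5-fold. With 3 of 10 genes passing, all higher, the background was 3.97% of all genes tested in either direction and 3.08% higher. No gene of the 10 passed at 3 µg/kg (background 0.228%) or at 10 µg/kg (background 0.613%). Before adjustment, p was under 0.05 in the edgeR test for 2, 4 and 6 of the 10 genes. DESeq2 called 0, 1 and 3 of them at these doses, and limma-voom called 0, 0 and 3. The median log2 change of the 10 genes was 0.16, 0.20 and 0.38 at 3, 10 and 30 µg/kg, compared with 0.00, -0.01 and -0.02 over all genes tested.

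**Figure D1:**
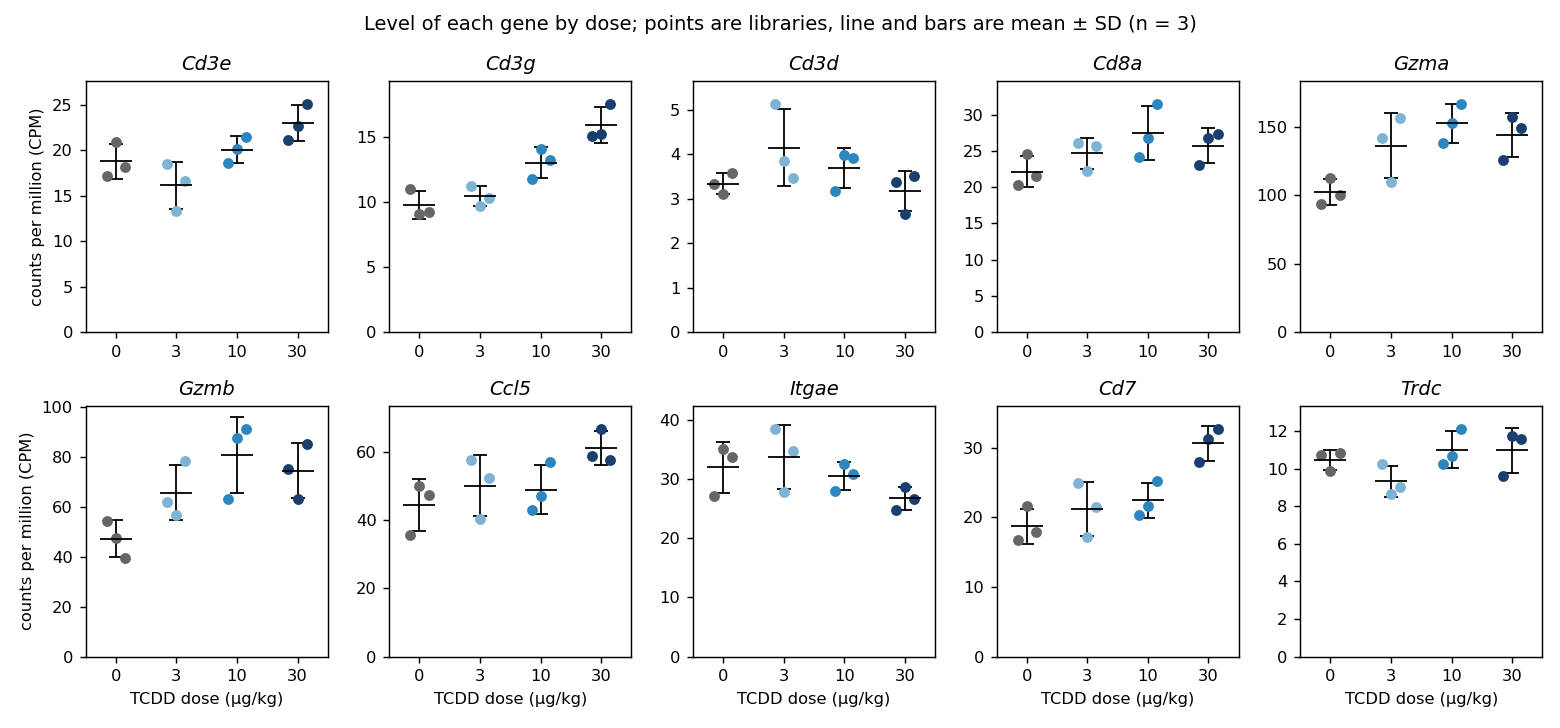
CPM of the 10 genes (y axis, from 0) in each of the 12 libraries against the TCDD dose in µg/kg (x axis). Points are libraries, and lines with bars are the mean ± SD (n = 3). The 3 libraries at 30 µg/kg lie above all 3 vehicle libraries for Cd3e, Cd3g, Gzma, Gzmb, Ccl5 and Cd7.

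The first genes considered encode chains of CD3, the complex that carries the signal of the T cell receptor into the cell. Cd3g, which encodes CD3γ, had 11.0, 9.07 and 9.25 CPM in the vehicle libraries and 11.2, 9.69 and 10.3 CPM at 3 µg/kg. It had 11.7, 14.1 and 13.2 CPM at 10 µg/kg and 15.1, 15.2 and 17.5 CPM at 30 µg/kg. All libraries of 10 and 30 µg/kg were above the highest vehicle library, and those of 30 µg/kg were above those of 10 µg/kg. The log2 change was 0.09 (SE 0.13), 0.41 (SE 0.13) and 0.71 (SE 0.12) at 3, 10 and 30 µg/kg, with edgeR adjusted p of 0.825, 0.157 and 0.00478. Cd3g rose 1.63-fold at 30 µg/kg. It passed at 30 µg/kg in all 11 other settings and in all 12 fits that left out 1 library.

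Cd3e and Cd3d, which encode CD3ε and CD3δ, did not pass at any dose. Cd3e had 17.2, 20.9 and 18.2 CPM in vehicle and 21.1 to 25.1 CPM at 30 µg/kg. Its highest vehicle library was just below its lowest library at 30 µg/kg, and the log2 change was 0.29 (edgeR adjusted p 0.214; SE 0.13). At 3 µg/kg Cd3e was 13.3 to 18.5 CPM, with a log2 change of -0.22 (edgeR adjusted p 0.542; SE 0.13). Cd3d, the lowest of the 10 with 30 to 68 counts per library, was 3.10 to 3.57 CPM in vehicle and 2.67 to 3.50 CPM at 30 µg/kg. These ranges overlapped, and 2 SE on either side of its log2 change of -0.06 spanned -0.46 to 0.35. Cd3e overlaps Gm48720 on the same strand and Gm48719 on the other, and the strand setting of the counting is not given in the sources used here.

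The balance of the chains CD3γ, CD3δ and CD3ε was compared within each library, a choice made after the values were seen and given without a test. Cd247, which encodes CD3ζ, is outside the 10 genes and these ratios. It did not pass, with a log2 change of -0.40 (edgeR adjusted p 0.461; SE 0.26) at 10 µg/kg. At 30 µg/kg its log2 change was -0.74 (edgeR adjusted p 0.121; SE 0.26). The count of Cd3g divided by that of Cd3d was 3.31, 2.93 and 2.59 in vehicle and 4.47, 5.70 and 5.00 at 30 µg/kg. All 3 ratios at 30 µg/kg were above those of the other 9 libraries. Cd3g divided by Cd3e was 0.639, 0.435 and 0.509 in vehicle and 0.713, 0.671 and 0.699 at 30 µg/kg, and it was 0.608 to 0.728 at 3 and 10 µg/kg.

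**Figure D2:**
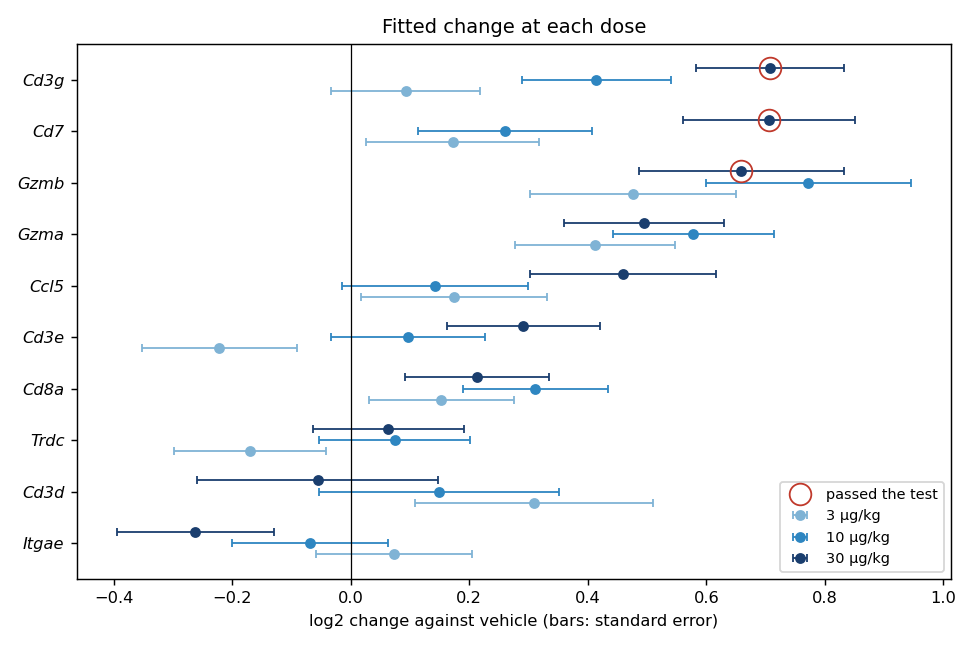
Fitted log2 change against vehicle (x axis) of each of the 10 genes (y axis, ordered by the change at 30 µg/kg) at 3, 10 and 30 µg/kg TCDD. Bars are standard errors and red circles mark changes that passed the test. Cd3g, Cd7 and Gzmb are circled at 30 µg/kg, with changes of 0.71, 0.71 and 0.66, and Itgae is lowest at -0.26.

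Granzymes are serine proteases that cytotoxic cells release into their targets. Gzmb had 54.5, 47.8 and 39.7 CPM in vehicle, 62.3, 56.9 and 78.4 CPM at 3 µg/kg, and 63.3, 87.7 and 91.6 CPM at 10 µg/kg. At 30 µg/kg it had 75.4, 63.2 and 85.5 CPM. Every treated library was above the highest vehicle library, and the libraries of 10 and 30 µg/kg overlapped each other. The log2 change was 0.48 (SE 0.17), 0.77 (SE 0.17) and 0.66 (SE 0.17), with edgeR adjusted p of 0.333, 0.0750 and 0.0430, so Gzmb rose 1.58-fold at the highest dose. The call at 30 µg/kg was lost in 5 of the 12 fits without 1 library, those without vehicle replicate 2 (edgeR adjusted p 0.117) or 3 (0.148), without 10 µg/kg replicate 2 (0.0590), and without 30 µg/kg replicate 1 (0.110) or 3 (0.143). It was also lost with the B lymphocyte score in the model, where the log2 change was 0.43 (edgeR adjusted p 0.168), and with the library index as a covariate (edgeR adjusted p 0.0785). At 10 µg/kg Gzmb passed without 3 µg/kg replicate 1 (edgeR adjusted p 0.0464) and without 10 µg/kg replicate 1 (0.0455), as well as in DESeq2 (adjusted p 0.00411), without a filter on low counts (edgeR adjusted p 0.00723) and with a score of circadian clock genes as a covariate (edgeR adjusted p 0.0369).

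Gzma, the gene with the highest level of the 10, had 93.6, 113 and 101 CPM in vehicle and 110 to 157 CPM at 3 µg/kg. It was 139 to 167 CPM at 10 µg/kg and 126 to 157 CPM at 30 µg/kg. The libraries of 10 and 30 µg/kg all lay above vehicle. The log2 change was 0.41 (SE 0.13), 0.58 (SE 0.14) and 0.49 (SE 0.13), with edgeR adjusted p of 0.291, 0.0846 and 0.0496. At 30 µg/kg the adjusted p was under the threshold, but the change of 1.41-fold was below the 1.5-fold required, and Gzma was therefore not called. Without 30 µg/kg replicate 1 it passed there, at 0.59 on the log2 scale (edgeR adjusted p 0.0452), and it passed at 10 µg/kg without 3 µg/kg replicate 1 (0.0493) or 2 (0.0471). Ccl5, which encodes a chemokine stored and secreted by memory CD8 T cells, had 35.7, 50.0 and 47.2 CPM in vehicle and 58.8, 66.7 and 57.5 CPM at 30 µg/kg. These libraries did not overlap, and the log2 change was 0.46 (edgeR adjusted p 0.109; SE 0.16).

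Cd7 encodes a surface glycoprotein of T and natural killer cells. It had 16.8, 21.6 and 17.9 CPM in vehicle, 24.9, 17.1 and 21.5 CPM at 3 µg/kg, and 20.4, 21.7 and 25.2 CPM at 10 µg/kg. At 30 µg/kg it had 27.9, 31.2 and 32.7 CPM, above all 9 other libraries. The log2 change was 0.17 (SE 0.15), 0.26 (SE 0.15) and 0.71 (SE 0.15), with edgeR adjusted p of 0.686, 0.399 and 0.0130, so Cd7 rose 1.63-fold at 30 µg/kg. The call was lost without 30 µg/kg replicate 3 (log2 change 0.65; edgeR adjusted p 0.0545) and with the B lymphocyte score in the model (log2 change 0.67; edgeR adjusted p 0.0628). Cd7 overlaps Gm11775 on the opposite strand.

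Cd8a, Itgae and Trdc, which mark the CD8, αE integrin and γδ features of these cells, did not pass at any dose. Cd8a (CD8α) was 20.3 to 24.5 CPM in vehicle, 24.2 to 31.5 CPM at 10 µg/kg and 23.0 to 27.3 CPM at 30 µg/kg. Its groups overlapped, with log2 changes of 0.15 (SE 0.12), 0.31 (SE 0.12) and 0.21 (SE 0.12) at the 3 doses and an edgeR adjusted p of 0.337 at 30 µg/kg. Trdc, the constant region of the T cell receptor δ chain, was 9.86 to 10.8 CPM in vehicle and 9.60 to 11.7 CPM at 30 µg/kg. Its log2 change there was 0.06 (SE 0.13), and 2 SE on either side spanned -0.19 to 0.32, a range that stops short of 1.5-fold in either direction.

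Itgae (integrin αE) had the lowest change of the 10 at 30 µg/kg. It was 27.1 to 35.0 CPM in vehicle, 27.9 to 38.5 CPM at 3 µg/kg, 28.0 to 32.6 CPM at 10 µg/kg and 24.7 to 28.7 CPM at 30 µg/kg. The groups of vehicle and 30 µg/kg overlapped, and the log2 change of -0.26 (SE 0.13) had an edgeR adjusted p of 0.273. Itgae overlaps Haspin, and Trdc overlaps Gm43434 and Trdv5, in each case on the opposite strand.

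The adjacent doses and the trend were compared to ask where along the dose range the genes changed. None of the 10 passed in the comparison of 10 with 3 µg/kg (background 0.158%) or of 30 with 10 µg/kg (background 2.77%) in edgeR's quasi-likelihood test, nor in DESeq2 or limma-voom. The unadjusted p was under 0.05 for 2 genes in each of these comparisons. The largest log2 difference of 30 from 10 µg/kg was that of Cd7, 0.45 (edgeR adjusted p 0.0996; SE 0.15). In the trend over dose rank, Cd3g rose by 0.73 (edgeR adjusted p 0.00351; SE 0.12) and Cd7 by 0.67 (edgeR adjusted p 0.0160; SE 0.14) on the log2 scale over the whole range. These are 2 of 10 genes, beside a background of 3.29%. Gzmb, at 0.68 (edgeR adjusted p 0.0614), passed in the trend without 3 µg/kg replicate 3 (0.0376) or 30 µg/kg replicate 2 (0.0340). Its trend also passed in DESeq2 (adjusted p 0.0135), with the clock score (edgeR adjusted p 0.00626) and with at least 10 counts required in every library (edgeR adjusted p 0.0468). Gzma, at 0.50 (edgeR adjusted p 0.0893), passed without 30 µg/kg replicate 1 (0.0499). The trend of Cd7 was lost without 30 µg/kg replicate 3 (log2 change 0.59, edgeR adjusted p 0.0703). It was also lost with the trend over exon length and GC content removed (0.47, edgeR adjusted p 0.0535). With the B lymphocyte score in the model the trend of Cd7 was also lost (log2 change 0.64; edgeR adjusted p 0.114), and that of Cd3g was 0.63 with an edgeR adjusted p of 0.0451, close to the threshold.

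Counting libraries rather than tests, 6 of the 10 genes (Cd3e, Cd3g, Gzma, Gzmb, Ccl5 and Cd7) had all 3 libraries of 30 µg/kg above all 3 of vehicle. Over all genes tested, 14.2% did so. At 10 µg/kg this held for Cd3g, Gzma and Gzmb (11.9% of all genes) and at 3 µg/kg for Gzmb (8.58%). The summed CPM of the 10 genes was 290 to 335 in vehicle, 310 to 409 at 3 µg/kg, 361 to 454 at 10 µg/kg and 385 to 436 at 30 µg/kg. The Gzma transcript is the largest part of this sum in every library.

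Ccl5, Gzma, Cd7 and Gzmb have short exon lengths, and the change at 30 µg/kg went with exon length among protein-coding genes. The median log2 change at 30 µg/kg was 0.23 over 673 such genes with 800 to 1500 nt of exon. It was 0.10 over 1750 genes with 1500 to 2500 nt, and 0.00 over 4834 genes with 2500 to 5000 nt. In the same order the medians were 0.05, 0.01 and 0.01 at 10 µg/kg, and 0.014, -0.004 and 0.009 at 3 µg/kg. Ccl5 (960 nt), Gzma (1006 nt), Cd7 (1133 nt) and Gzmb (1436 nt) fall in the first class, whereas Cd3g (3269 nt) falls in the third. These lengths join the exons of all annotated transcripts of a gene and can exceed the length of the transcript present. The class of Cd3g, and its value with the trend removed, therefore rest partly on the annotation. With the trend over length and GC content removed, the log2 change at 30 µg/kg was 0.76 for Cd3g (edgeR adjusted p 0.00413), 0.51 for Cd7 (0.0612) and 0.54 for Gzmb (0.0898). Only Cd3g of the 10 then passed, and the median of the 10 genes was 0.27. Ccl5 was at 0.24 and Gzma at 0.33 after that step.

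**Figure D3:**
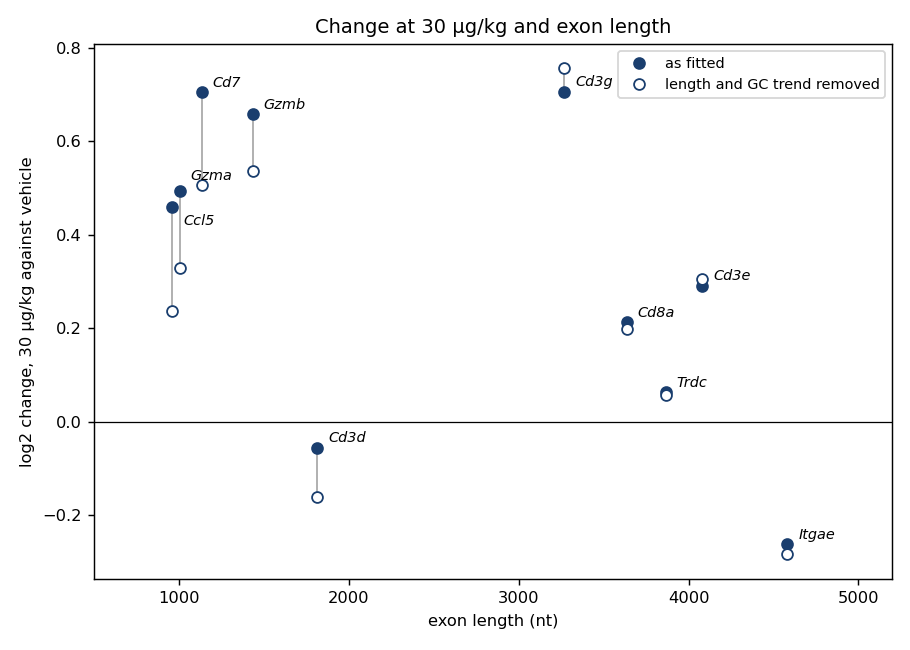
Log2 change at 30 µg/kg against vehicle (y axis) and exon length in nt (x axis) of the 10 genes. Filled points are as fitted and open points have the trend over length and GC content removed. The open points of Ccl5, Gzma, Cd7 and Gzmb lie below their filled points, and that of Cd3g lies above at 0.76.

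Levels between genes were compared per length, as CPM per kilobase of exon (RPKM). The exons of all annotated transcripts of a gene were joined, so the order rests partly on the annotation. In vehicle the order was Gzma at 102 ± 9.55 (SD, n = 3), Ccl5 at 46.2 ± 7.90, Gzmb at 33.0 ± 5.17, Cd7 at 16.5 ± 2.23, Itgae at 6.97 ± 0.932, Cd8a at 6.09 ± 0.596, Cd3e at 4.60 ± 0.466, Cd3g at 2.99 ± 0.326, Trdc at 2.71 ± 0.137 and Cd3d at 1.84 ± 0.130. The neighbours Ccl5 and Gzmb, Itgae and Cd8a, and Cd3g and Trdc overlapped in their libraries. At 30 µg/kg the order changed in the middle, where Cd8a was at 7.07 ± 0.654 and Itgae at 5.83 ± 0.435 with no overlap. Itgae then overlapped Cd3e at 5.63 ± 0.486, and Cd3e overlapped Cd3g at 4.87 ± 0.423.

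Libraries of the same dose also differed from each other in these genes. Replicate 2 of 3 µg/kg was below the mean of its dose for all 10 genes, by between 0.08 for Cd3d and 0.29 for Ccl5 on the log2 CPM scale. Replicate 1 of 10 µg/kg was likewise below its dose mean for all 10, by 0.10 to 0.33. In vehicle the genes divided, since replicate 1 was below the mean for Cd3e, Cd8a, Gzma, Ccl5, Itgae and Cd7 but above it for Gzmb (0.22) and Cd3g (0.17). Cd3e, Cd8a, Gzma, Itgae and Cd7, picked out after their values were seen, had their lowest library in common at all 4 doses, namely replicate 2 of 3 µg/kg and replicate 1 of the other groups.

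**Figure D4:**
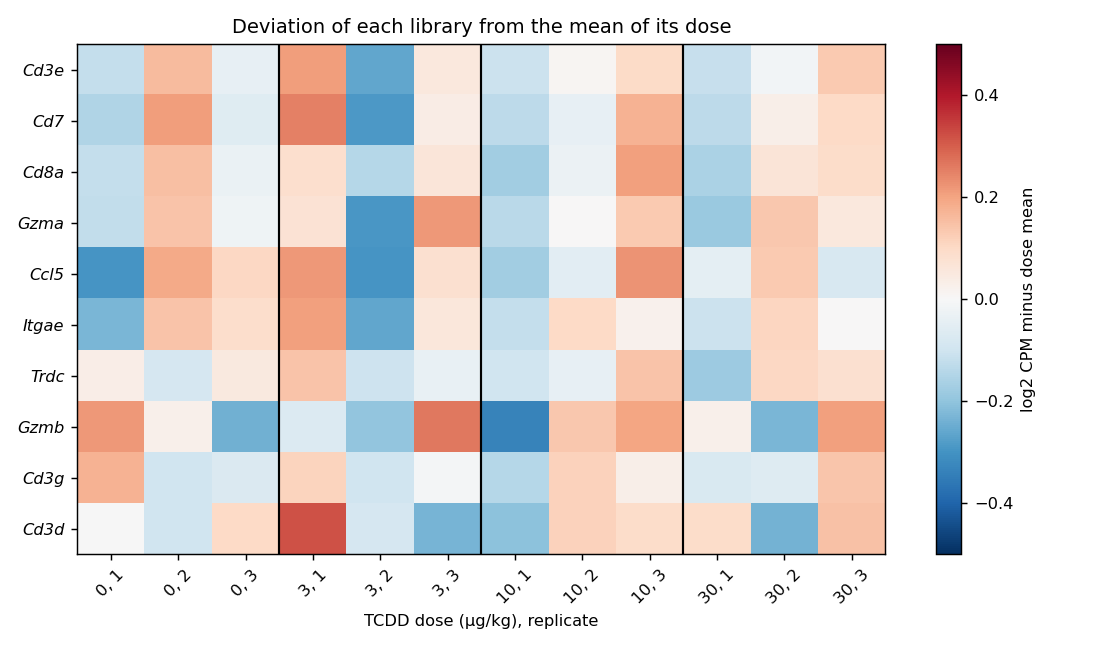
Log2 CPM minus the mean of the same dose (colour, -0.5 to 0.5) for the 10 genes (rows) in the 12 libraries (columns, labelled by dose in µg/kg and replicate). The column of 3 µg/kg replicate 2 and that of 10 µg/kg replicate 1 are below the dose mean for all 10 genes.

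The genes outside the 10 that were most like them across libraries were ranked by Pearson r with the mean standardised log2 CPM of the 10, over 12 libraries that share their depth and scaling. They were Phpt1 (r = 0.90), Txnl1 (0.86), Rab5c (0.86), Gm14921 (0.83) and Ndufa13 (0.83). Within the 10, Cd8a (0.90), Gzma (0.87) and Cd7 (0.86) were most like the mean, and Cd3d (0.19) and Itgae (0.12) were least like it. Each of the 10 is itself part of that mean, which raises its r. These values therefore cannot be set beside those of the genes outside the 10. Gm14921, a processed pseudogene whose reads may belong to its parent gene, rose by 1.14 on the log2 scale at 30 µg/kg (edgeR adjusted p 0.00325).

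Other genes of the same cells were followed in lists, which were chosen with earlier results of these data known. Of 22 genes for the T cell receptor and its signalling, 21 were tested, and none passed at any dose or in the trend in the edgeR test. Their median log2 change at 30 µg/kg was -0.23, 5 of the 21 were above 0, and 3 had an unadjusted p under 0.05. These 3, Cd247, Trbc1 and Lat, were all lower than in vehicle. Of 20 genes for cytotoxic granules and natural killer receptors, 10 were tested and none passed, with a median of -0.02, 5 of 10 above 0 and 1 with an unadjusted p under 0.05. The T cell receptor constant genes Trbc1, Trbc2 and the Tcrg-C genes have near-identical copies, so their counts are uncertain. Cd8b1, which encodes the CD8β chain absent from the CD8αα homodimer, was examined after its values were seen. It had only 7 to 30 counts per library, and the count of Cd8a divided by that of Cd8b1 was 14.4 to 19.6 in vehicle and 21.6 to 48.0 in the treated libraries. The log2 change of Cd8b1 itself was -0.49 (edgeR adjusted p 0.452; SE 0.35) at 30 µg/kg.

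In the list for homing and residency, 1 of 17 genes tested passed at 30 µg/kg, and it was lower. Itgal, the αL chain of the integrin LFA-1 of leukocytes, was 7.56 to 11.7 CPM in vehicle and 4.65 to 5.00 CPM at 30 µg/kg, and these groups did not overlap. It fell by 1.00 (edgeR adjusted p 0.0428; SE 0.26) on the log2 scale. The median of that list was -0.55, and 3 of 17 genes were above 0. None of the 7 genes tested of the list for naive and helper T cells passed (median -0.79 at 30 µg/kg, 3 with an unadjusted p under 0.05).

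Genes shared by all leukocytes were followed to ask about leukocyte content as a whole. Of 10 pan-leukocyte genes, 2 passed at 30 µg/kg, both lower, and 0 of 10 had a log2 change above 0 (median -0.54). Ptprc, which encodes CD45, was 55.2 to 93.6 CPM in vehicle and 42.9 to 49.1 CPM at 30 µg/kg, and it fell by 0.71 (edgeR adjusted p 0.0229; SE 0.16) on the log2 scale. Vav1, a signalling protein of blood cells, fell by 0.61 (edgeR adjusted p 0.0461; SE 0.16). The B lymphocyte score, chosen after the values were seen, was -1.05, 1.04 and 1.88 in vehicle and -0.91 to -0.58 at 30 µg/kg. It is partly tied to dose, so dose and B lymphocyte RNA cannot be told apart where a call is lost with it. With the B lymphocyte score in the model none of the 3 passed, and the log2 changes were -0.39 for Ptprc (edgeR adjusted p 0.0721), -0.38 for Vav1 (0.212) and -0.59 for Itgal (0.178). With the library index as a covariate none of the 3 passed either, at edgeR adjusted p of 0.0531 for Ptprc, 0.0865 for Vav1 and 0.0770 for Itgal. Each of the 3 calls was also lost without vehicle replicate 2 or 3 and without 30 µg/kg replicate 1 or 2, and Ptprc, Itgal and Vav1 passed in 8, 4 and 2 of the 12 fits without 1 library.

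Of the B and plasma cell list, none of 9 genes tested passed at 30 µg/kg, although 6 had an unadjusted p under 0.05 (median -1.88), and Cd22, an inhibitory receptor of B cells, fell by 2.53 (edgeR adjusted p 0.0398; SE 0.65) in the trend. Its vehicle libraries had 1.18, 7.64 and 16.0 CPM and those of 30 µg/kg had 1.37 to 1.43 CPM, so the lowest vehicle library was below all 3 of 30 µg/kg. With the B lymphocyte score, which contains Cd22, the change was -0.27 (edgeR adjusted p 0.698), and without vehicle replicate 3 it was -1.72 (edgeR adjusted p 0.195). The trend of Cd22 passed in only 3 of the 12 fits without 1 library, those without vehicle replicate 1, 3 µg/kg replicate 3 or 10 µg/kg replicate 1, and it was lost in limma-voom (adjusted p 0.214) and with the library index as a covariate (edgeR adjusted p 0.101). No gene passed at 30 µg/kg in the lists for enterocytes (median 0.32 over 10 genes, 3 with an unadjusted p under 0.05), for smooth muscle and fibroblasts (median -0.42 over 11 genes, 0 under 0.05) or for myeloid and mast cells (median 0.10 over 10 genes tested, 5 under 0.05). At 10 µg/kg the smooth muscle and fibroblast list had a median of -1.63, with 0 of 11 genes above 0. None of the 11 passed at that dose, although 9 had an unadjusted p under 0.05 in the edgeR test. The part of these differences between libraries in the rises of Cd7 and Gzmb was not tested beyond the model with the B lymphocyte score.

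**Figure D5:**
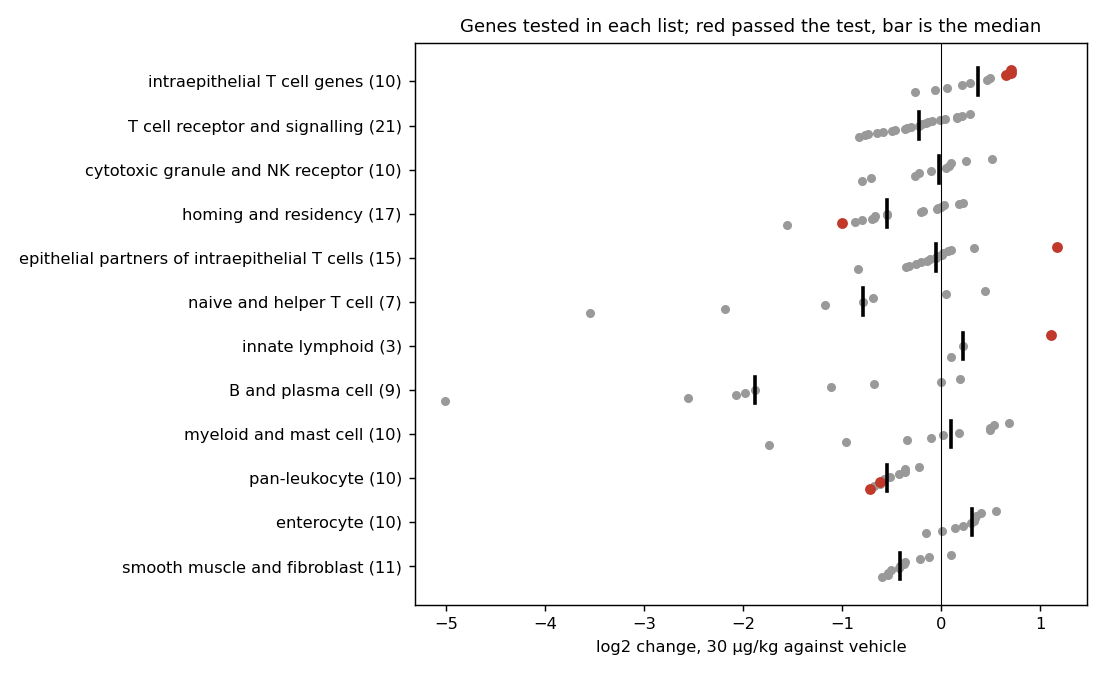
Log2 change at 30 µg/kg against vehicle (x axis) of the genes tested in each list (y axis, number tested in brackets). Points are genes, red points passed the test and black bars are medians. The 10 intraepithelial T cell genes have a median of 0.38, and the pan-leukocyte genes all lie below 0 with a median of -0.54.

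Among 15 genes listed as epithelial partners of intraepithelial T cells, such as the adhesion partner, cytokines and butyrophilin-like proteins, 1 passed and it was higher. Whether that gene, Ccl28, acts on these cells here was not tested. The median log2 change of the list at 30 µg/kg was -0.05, and 6 of 15 were above 0. An unadjusted p under 0.05 in the edgeR test was found for 5, namely Ccl28 and B2m, higher, and Btnl1, H2-T3 and Il7, lower. Ccl28, an epithelial chemokine that attracts lymphocytes to mucosa, was 33.9 to 38.4 CPM in vehicle, 48.9 to 62.7 CPM at 3 µg/kg, 70.5 to 78.6 CPM at 10 µg/kg and 65.6 to 93.5 CPM at 30 µg/kg. Its log2 change was 1.04 (edgeR adjusted p 0.00211; SE 0.13) at 10 µg/kg and 1.17 (edgeR adjusted p 0.000237; SE 0.13) at 30 µg/kg, and the latter passed in all 11 other settings and all 12 fits without 1 library. In the innate lymphoid list 1 of 3 genes tested passed. Kit, a receptor tyrosine kinase that also marks mast cells and interstitial cells, was 6.83 to 11.6 CPM in vehicle and 17.3 to 23.3 CPM at 30 µg/kg. Kit rose by 0.95 (edgeR adjusted p 0.0260; SE 0.17) at 10 µg/kg and by 1.12 (edgeR adjusted p 0.00211; SE 0.17) at 30 µg/kg on the log2 scale.

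The AhR targets Cyp1a1 and Cyp1b1, which encode enzymes that oxidise xenobiotics, gave the scale of the response in the same libraries, and 4 of 5 listed targets passed at 30 µg/kg, all higher. Cyp1a1 rose by 5.54 (edgeR adjusted p 0.000222; SE 0.53) at 10 µg/kg and by 7.01 (edgeR adjusted p 2.31e-05; SE 0.57) at 30 µg/kg on the log2 scale. Cyp1b1 rose by 5.53 (edgeR adjusted p 7.93e-08; SE 0.22) at 30 µg/kg. Ahrr, which encodes the repressor of AhR, rose by 3.85 and Tiparp, an AhR-induced ADP-ribosyltransferase, by 1.38 on the same scale. Of the 5 listed targets none passed at 3 µg/kg, with a median log2 change of 0.28 and all 5 above 0. Their summed CPM was 94.1 to 235 at 3 µg/kg and 83.9 to 101 in vehicle, and these ranges overlapped.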

How the data were processed

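RNA from 12 libraries of proximal ileal epithelium (vehicle and 3, 10 and 30 µg/kg TCDD, 3 each) was sequenced by the authors. The authors deposited unnormalized read counts, 1 value for each Ensembl gene. Submitters' processing notes name FastQC 0.11.3, Trimmomatic 0.33, TopHat2 2.1.0, SAMtools 1.2.0, HTSeq 0.6.1, DESeq and the GRCm38 build; the strand setting is not given in the sources used here. Entries that name no gene held 60.3 to 64.6% of each table and were left out. Of 46078 gene identifiers, 45143 matched GENCODE M21, which gave symbols, positions and lengths.

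The tests used edgeR 4.0.16 (R 4.3.3) with filterByExpr, TMM scaling and 1 quasi-likelihood model of 4 groups. Log2 CPM used a prior count of 2. The members and lists were chosen with earlier results of these data known. Named were all 10 genes, the called genes of the other lists (at most 4 per list), the 5 most alike genes, Cyp1a1 and Cyp1b1. Alternatives were DESeq2 1.42.0, limma-voom (limma 3.58.1), other scalings and filters, compared groups alone, library index, clock score and length with GC content. A B lymphocyte score was added after the values were seen. 1 gene is not reported here and was left out of the lists and the score. The fit was tested on simulated data. P-values weigh each change against the spread between these libraries.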

Additional observations from a re-analysis of the deposited data

How the results depend on the processing

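The labels give no replicate numbers, but 1 library of each dose carries each of 3 library indexes, in the order of the numbers used here, so the fit with the library index is also the fit with a replicate block. It called 0, 0 and 2 of the 10 genes at 3, 10 and 30 µg/kg and 2 in the trend. Libraries that share an index did not deviate together, since only 4 of their 18 correlations of deviations from the dose means, over all genes tested, were above 0.1 (median -0.07), compared with 12 of 36 for libraries of different index (median 0.04). The count of the 10 genes called was equal to the value reported, or within 1.5 times of it, in 125 of 137 combinations. Each combination was 1 comparison in 1 of 23 alternative settings. The value reported was 0 at 3 and 10 µg/kg and between adjacent doses, so many of these matches are of 0 with 0. A count of 2 beside 3 also falls within 1.5 times. The share therefore says little about the calls at 30 µg/kg. At 10 µg/kg the count was 1 without a filter on low counts, with DESeq2 and with the clock score as a covariate, and between 0 and 2 when 1 library was left out. At 30 µg/kg and in the trend it was 1 with the length and GC trend removed. With the B lymphocyte score, chosen after seeing the data, it was 1 at 30 µg/kg and 1 in the trend. Leaving out 1 library gave between 1 and 3 calls at 30 µg/kg and between 1 and 3 in the trend, with the lowest of each without 30 µg/kg replicate 3. The causes were not tested.

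Log2 changes that turned sign were all near 0 and not called. For Itgae at 10 µg/kg the value was 0.0026 with the clock score and 0.0077 without vehicle replicate 2, and at 3 µg/kg it was -0.045 without vehicle replicate 1 and -0.037 without 3 µg/kg replicate 1. For Cd3g at 3 µg/kg it was -0.037 with the length and GC trend removed. Over the fits without 1 library, Itgae ranged up to 0.19 at 3 µg/kg and down to -0.16 at 10 µg/kg. Without 30 µg/kg replicate 2, Cd3d was at 0.047 at 30 µg/kg and at 0.028 in the trend, and the lowest values without 1 library were -0.13 and -0.19. Cd3d, with 30 to 68 counts per library, had the largest SE of the 10 log2 changes at 30 µg/kg (0.20).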
